A study of Homo sapiens with 2 samples.

Results

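The genes described here encode the human factors that start, stop and silence transcription of the ribosomal RNA genes (rDNA). They were chosen by name, with earlier results of these data known. UBTF, RRN3, TAF1A, TAF1B, TAF1C and TAF1D were taken as initiation factors of RNA polymerase I (Pol I). TTF1, BAZ2A and SMARCA5 were taken as termination and silencing factors. All 9 symbols were matched to an Ensembl identifier, and they make up 9 of the 57736 genes listed. Their mRNAs were counted in poly(A)+ RNA-Seq libraries of wild-type HEK293T, an established line derived from human embryonic kidney and transformed with viral genes, among them the large T antigen of SV40. By the labels, a heat shock of 20 min at 43 °C was followed by 6 h of recovery at 37 °C. The study's text gives a longer heat shock at the same temperature. The study concerned the contacts that rDNA clusters make with other genes and how heat shock alters them. There was 1 group of 2 libraries, each from separately lysed cells of 1 transformed line, and no untreated library was analysed here, so the values are levels after heat shock and recovery and not changes caused by it.

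Pol I transcribes the repeated rDNA units in the nucleolus. At the promoter, the upstream binding factor UBF and the selectivity factor SL1, which is made of the TATA-binding protein TBP and Pol I-specific TAF proteins, form a platform to which RRN3 brings the polymerase. Downstream of the gene, TTF1 binds terminator elements, and it also binds beside the promoter, where it can recruit the nucleolar remodeling complex NoRC, made of BAZ2A (TIP5) and the ATPase SMARCA5 (SNF2H), which silences a share of the rDNA units. The product of Pol I carries no poly(A) tail, so these libraries measure the mRNAs of the factors and not rRNA synthesis.

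Replicate 1 held 22529828 expected counts and replicate 2 held 26890199. The smallest level that 3 reads represent was 0.133 and 0.112 CPM (counts scaled to the library total), and this floor covers counting error only. Because whole cultures were lysed, fewer expressing cells and less RNA per cell cannot be told apart. Of the marker genes matched, 4 of 9 kidney epithelial and 5 of 7 neuronal genes were detected. Summed TPM was 88.5 and 72.7 for the kidney markers and 477 and 461 for the neuronal markers in replicates 1 and 2. Most of the neuronal sum was from 1 gene, UCHL1, with 397 and 367 TPM. The neuronal markers STMN2 (0.03 and 0.06 TPM) and SNAP25 (0 and 0.15 TPM) were not detected. The kidney marker UMOD and the leukocyte markers PTPRC and CD3E were at 0, and 1 of 4 fibroblast, 1 of 4 leukocyte and 0 of 2 endothelial markers were detected (summed TPM 22.9 to 24.7, 5.97 to 6.59 and 0.01 to 0.03). The part of these transcripts in the levels below was not tested.

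All 9 genes were detected, taken as a transcript level (TPM) of at least 1 in both libraries, where 26.3% of all listed genes and 63.8% of protein-coding genes passed that limit. TPM is scaled to transcript length and to the total of each library, so levels can be set side by side between genes. Mean levels ran from 6.74 TPM for TAF1A to 196 TPM for BAZ2A, a range of 29.0-fold. The median detected gene stood at 14.3 TPM, and 7 of the 9 genes were above the 50th percentile of detected genes. TAF1A, at the 32.1 percentile, and TAF1B, at the 49.4 percentile, were the exceptions.

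**Figure D1:**
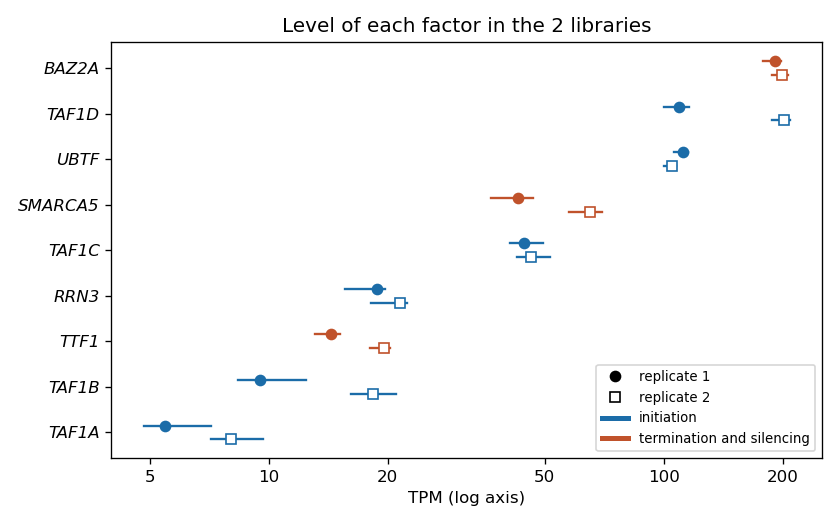
TPM (log axis) of the 9 genes in replicate 1 (filled circles) and replicate 2 (open squares), with the credibility interval of each value as a line, in blue for initiation and orange for termination and silencing factors. BAZ2A, TAF1D and UBTF lie above 100 TPM in both libraries and TAF1A lies under 10 TPM in both.

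UBTF, the gene of UBF, lies on the reverse strand at chr17:42282401-42298994 (GRCh37). Its TPM was 112 in replicate 1 and 105 in replicate 2, a mean of 108 ± 4.74 (SD, n = 2). Both libraries were close together, and the gene ranked 1306 of the 15188 detected genes. It was the most abundant initiation factor in replicate 1, and TAF1D was in replicate 2. UBTF gives rise to several protein isoforms that differ in their activity, and the gene-level value adds them up over 14 listed transcripts. The paralogue UBTFL1 was listed at 0 in both libraries.

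RRN3, also called TIF-IA, links Pol I to SL1 and is a target of growth and stress signalling. It lies at chr16:15153890-15188168 (GRCh37, reverse strand), and had a TPM of 18.85 in replicate 1 and 21.5 in replicate 2 (20.2 ± 1.88, SD, n = 2). The credibility intervals of the libraries, 15.6 to 19.7 and 18.1 to 22.3 TPM, overlapped. RRN3 has near-identical pseudogenes on the same chromosome, and reads from them can be assigned to it or taken from it. Of the 4183 different sequences of 50 bases, the length of a read, in its reference transcripts, 25.0% also lay in transcripts of another gene. The shares were 20.4% in RRN3P2, 12.4% in RRN3P1, 6.24% in RRN3P3 and 6.24% in CDR2, which is not among these pseudogenes and whose level was not read here. A stretch of 80 bases of RRN3 exon 13 is shown with its copies because it shows how few bases tell their reads apart. The reference sequences are from GRCh37 transcripts, written 5′ to 3′ on the strand of each gene, with capitals at the 4 positions where the copies differ.
RRN3: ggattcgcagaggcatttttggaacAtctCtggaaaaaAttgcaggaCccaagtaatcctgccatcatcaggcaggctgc
RRN3P1: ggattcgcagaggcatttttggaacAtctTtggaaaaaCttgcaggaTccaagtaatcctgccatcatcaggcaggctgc
RRN3P2: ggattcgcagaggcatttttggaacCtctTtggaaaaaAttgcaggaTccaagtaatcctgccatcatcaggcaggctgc
RRN3P3: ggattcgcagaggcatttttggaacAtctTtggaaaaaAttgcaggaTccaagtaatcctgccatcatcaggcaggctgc

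These stretches lie at chr16:15165029-15165108 (reverse strand), chr16:21812079-21812158 (reverse), chr16:29107452-29107531 (forward) and chr16:22447054-22447133 (reverse). RRN3P1 and RRN3P2 each differ from RRN3 at 3 of the 80 bases, and RRN3P3 at 2. The pseudogenes stood far below RRN3, with a TPM of 1.92 and 2.62 for RRN3P1, 0.41 and 0 for RRN3P2, and 1.92 and 2.22 for RRN3P3 in replicates 1 and 2. The quantifier's posterior SD for RRN3 was 8.08 reads of 669 and 7.68 reads of 901, or 1.21% and 0.853%. For RRN3P2, it was 8.57 reads around an expected count of 10.2 in replicate 1, so that value is uncertain.

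The TAF genes of SL1 differed widely in level. TAF1A (chr1:222731244-222763275, reverse strand) had a TPM of 5.45 in replicate 1 and 8.03 in replicate 2, a mean of 6.74 ± 1.82 (SD, n = 2). It was the lowest of the 9 genes in both libraries and rested on 127 and 211 expected counts. TAF1B (chr2:9983572-10074545, forward strand), a relative of the Pol II factor TFIIB, had a TPM of 9.48 in replicate 1 and 18.4 in replicate 2 (13.95 ± 6.32). The libraries differed 1.94-fold for TAF1B in TPM but 1.37-fold in CPM, because the mean transcript length used for this gene was shorter in replicate 2, with effective lengths of 1232 and 913 bases. TAF1C (chr16:84211453-84220676, reverse strand) had a TPM of 44.4 in replicate 1 and 46.2 in replicate 2 (45.3 ± 1.301), the closest pair of values among the TAF genes.

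TAF1D (chr11:93463114-93517557, reverse strand) had a TPM of 109 in replicate 1 and 202 in replicate 2 (156 ± 65.6, SD, n = 2). It was the highest of the TAF genes in both libraries and also had the largest SD of the 9 genes. Its level was 20.0 and 25.2 times that of TAF1A, and 2.46 and 4.37 times that of TAF1C, in replicates 1 and 2. The 4 TAF genes together held 169 TPM in replicate 1 and 275 TPM in replicate 2. TBP, their partner in SL1, had a TPM of 41.5 and 44.5, which was 7.61 and 5.55 times the level of TAF1A. Of the 22 transcripts listed for TAF1D, 3 are annotated as protein-coding, 9 as retained intron and 7 as targets of nonsense-mediated decay, so its gene-level TPM is not a level of coding mRNA alone. The same limit holds for the other members, each of which lists transcripts not annotated as protein-coding. For example, 2 of 11 are protein-coding for TAF1B, 9 of 24 for TAF1C and 1 of 3 for SMARCA5.

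TTF1, the termination factor, lies at chr9:135250935-135282238 on the reverse strand. Its TPM was 14.4 in replicate 1 and 19.6 in replicate 2 (17.0 ± 3.66, SD, n = 2). It was the lowest of the termination and silencing factors in both libraries. The name TTF-1 is also used for the protein of NKX2-1, a different gene, which had a TPM of 7.47 and 8.54 here.

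BAZ2A, the large subunit of NoRC, lies at chr12:56989380-57030600 on the reverse strand. Its TPM was 192 in replicate 1 and 199.8 in replicate 2 (196 ± 5.67, SD, n = 2), which ranked 656 among detected genes. Both libraries were close together, and its mean was the highest of the 9 genes. SMARCA5, the ATPase of NoRC, lies at chr4:144434855-144478639 on the forward strand and had a TPM of 42.7 in replicate 1 and 65.3 in replicate 2 (54.0 ± 15.96). BAZ2A thus stood 4.49 and 3.06 times above its partner. SMARCA5 serves several other ISWI remodelers as well, so its mRNA is not a measure of NoRC alone. The related ATPase gene SMARCA1 had a TPM of 30.9 and 48.2, a little below SMARCA5, with ratios of SMARCA5 to SMARCA1 of 1.38 and 1.36.

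In order of mean TPM, the genes ran BAZ2A, TAF1D, UBTF, SMARCA5, TAF1C, RRN3, TTF1, TAF1B and TAF1A. The libraries of UBTF and SMARCA5, of TAF1C and RRN3, and of TAF1B and TAF1A did not overlap. Within the groups so formed, neighbours overlapped. The order of BAZ2A and TAF1D, of TAF1D and UBTF, and of SMARCA5 and TAF1C differed between the libraries and was not resolved. RRN3 lay above TTF1, and TTF1 above TAF1B, within each library, although their values overlapped across the 2 libraries. Of genes that were not neighbours, BAZ2A lay above UBTF and RRN3 above TAF1B in both libraries without overlap. FPKM gave the same order, with RRN3 and TTF1 then apart.

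The order among the highest genes, and that of RRN3 and TTF1, depended on the transcript length used. The TPM values rest on a mean length, weighted by the abundance of each transcript, that was 97.1% and 96.5% of the canonical transcript for TTF1 but 26.2% and 25.2% for BAZ2A. For BAZ2A the canonical transcript has 8938 bases, and the matched transcripts run down to 421 bases with a median of 681 bases. With reads per kilobase of the canonical transcript (CPM per kb) in place of TPM, an alternative chosen after seeing the data, TAF1D had 55.9 and 98.5, UBTF had 51.6 and 44.8, BAZ2A had 39.8 and 38.0, and SMARCA5 had 26.0 and 40.3. BAZ2A then stood behind TAF1D and UBTF and overlapped SMARCA5, and its ratio to SMARCA5 was 1.53 in replicate 1 and 0.943 in replicate 2. The ratio of BAZ2A to UBTF changed side, from 1.72 and 1.90 in TPM to 0.772 and 0.849. RRN3 and TTF1 also changed places, since per kb TTF1 had 11.2 and 14.4 and RRN3 had 8.01 and 9.04, without overlap. TAF1A and TAF1B were the lowest on both scales.

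**Figure D2:**
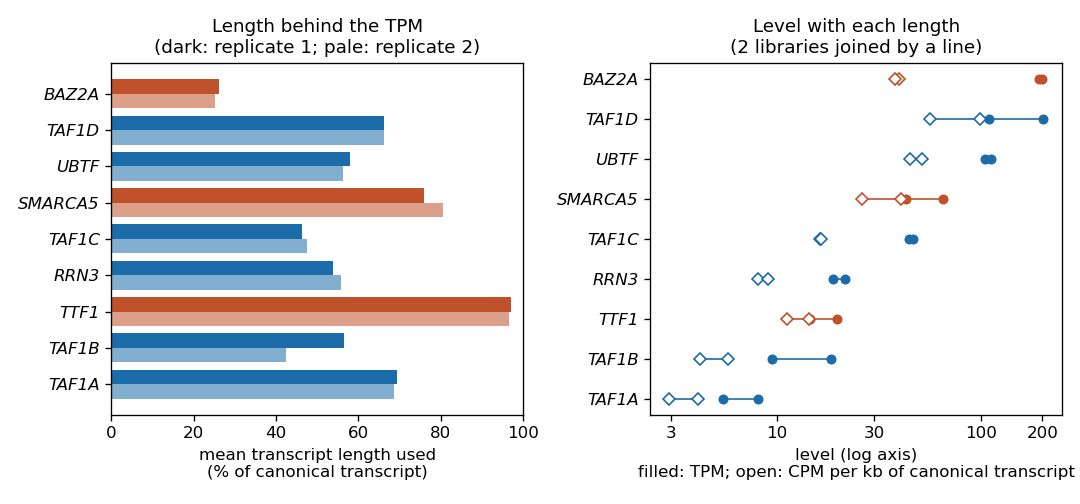
Left, mean transcript length used for each gene as a percent of its canonical transcript, in replicate 1 (dark bars) and replicate 2 (pale bars). Right, level of each gene (log axis) as TPM (filled) and as CPM per kb of the canonical transcript (open), with both libraries joined by a line. BAZ2A has the shortest relative length, 26.2% and 25.2%, and the widest gap between its scales.

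The initiation factors were then compared with the termination and silencing factors. The 6 initiation genes summed to 299 TPM in replicate 1 and 401 TPM in replicate 2, and the 3 termination and silencing genes summed to 249 and 285 TPM. The ratio of the sums was 1.20 and 1.41 (1.31 ± 0.147, SD, n = 2), above 1 in both libraries. Per gene the order was the opposite, with a ratio of mean TPM of 0.601 and 0.705, and of median TPM of 0.741 and 0.519. Single genes carried the sums: without TAF1D the ratio of sums was 0.763 and 0.700, and without BAZ2A it was 5.24 and 4.73. Per kb of canonical transcript, the ratio of sums was 1.80 and 1.93, and the ratio of means per gene was 0.902 and 0.964. The sums cover 6 genes against 3, which by itself raises their ratio above that of the means. Genes are not replicates and there was 1 condition, so no test of this ratio was made. The 9 genes together made up 0.0548% and 0.0686% of all TPM.

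The libraries were compared gene by gene, to learn how far replicate values of these factors could be trusted. A two-sided exact binomial test, adjusted by Benjamini-Hochberg, compares these libraries and not conditions. Reads were first scaled by library size with TMM factors, so higher or lower means the share of a library and not its raw count, which was larger in the deeper replicate 2 for all 9 genes. The test called 7 of the 9 genes different, against a background of 42.2% of 19714 genes tested and 55.3% of those whose counts summed to at least 100. By set, it called 4 of 6 initiation genes and 3 of 3 termination and silencing genes. TAF1A, TAF1B, TAF1D, TTF1 and SMARCA5 had more scaled reads in replicate 2 (22.1% of all genes tested), whereas UBTF and BAZ2A had more in replicate 1 (20.1%). These shares include genes with few reads, which the test can hardly call. Of the 13840 genes whose counts summed to at least 100, 3848 were called higher in replicate 2 and 3801 in replicate 1. All 9 genes, and all genes of the partner lists below, passed that limit. The largest difference was in TAF1D, with a log2 ratio of replicate 2 over replicate 1 of 0.79 (adjusted p = 3.86e-96, exact binomial test), followed by SMARCA5 with 0.60 (adjusted p = 1.76e-115, exact binomial test). For TAF1A and TAF1B the log2 ratios were 0.45 and 0.43, for TTF1 0.34, for UBTF -0.23 and for BAZ2A -0.094. RRN3, at 0.15 (adjusted p = 0.0963, exact binomial test), and TAF1C, at -0.0057 (adjusted p = 0.971, exact binomial test), did not pass. Where a biological coefficient of variation of 0.1 was assumed in the exact test of edgeR, 2 genes passed, TAF1D (adjusted p = 0.00387) and SMARCA5 (adjusted p = 0.046), against a background of 7.69%. With an absolute log2 ratio of at least 0.5 also required, the same 2 genes were called (14.1% of all genes), and with scaling by library totals 8 were, RRN3 being the added one (41.5% of all genes).

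The direction of these differences went with GC content. The 6 genes with under 45% GC, from TAF1D with 37.6% to TTF1 with 43.7%, had log2 ratios above 0, and the 3 with over 50%, BAZ2A with 52.6%, UBTF with 55.8% and TAF1C with 62.7%, had log2 ratios below 0. Across all genes whose counts summed to at least 100, low-GC genes had more scaled reads in replicate 2, with a median log2 ratio of 0.94 in the class around 35.8% GC and -0.28 in the class around 67.4%. All 9 factors lay between the 10th and 90th percentile of genes of like GC content. With the median of genes of the same GC content taken off, the log2 ratio of TAF1D was 0.071 (adjusted p = 0.175, exact binomial test) and that of TAF1A was 0.0036. In this comparison 2 of the 9 genes were called, against a background of 26.9%, namely TAF1C at 0.23 (adjusted p = 5.86e-05, exact binomial test) and SMARCA5 at -0.093 (adjusted p = 0.00308, exact binomial test). SMARCA5 was thus on the other side of 0 relative to genes of like GC content, and so were TAF1C, RRN3 (-0.11) and BAZ2A (0.031).

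**Figure D3:**
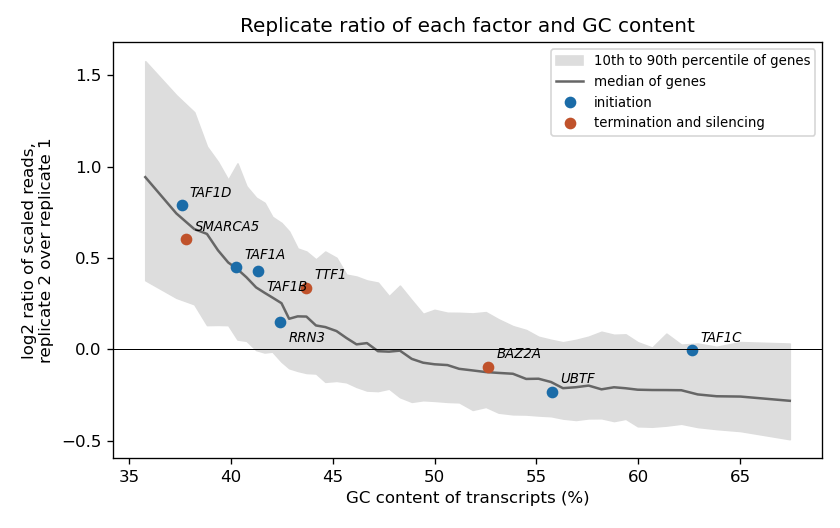
Log2 ratio of scaled reads in replicate 2 over replicate 1 against the GC content of the transcripts (%), for the 9 genes (blue, initiation; orange, termination and silencing) and for all genes whose counts summed to at least 100 (line, median; grey band, 10th to 90th percentile). All 9 genes lie inside the band, which falls from low to high GC content.

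Other genes share bases with several of these factors, and whether counting used the strand is not stated in the sources read, so reads from opposite strands may not have been told apart. TAF1D overlaps 12 annotated genes, among them 8 snoRNA genes on its own strand, of which 3 had reads, and the antisense gene CEP295, which shares 250 exon bases with it and had 942 and 2630 expected counts beside 2056 and 4324 for TAF1D. SMARCA5 shares 400 exon bases with the antisense RNA gene SMARCA5-AS1, which had 409 and 784 counts beside 4506 and 8328. BAZ2A shares 598 bases with RBMS2 (936 and 1082 counts), TAF1C shares 450 bases with DNAAF1 (53.7 and 49.0 counts), and TAF1A shares 109 bases with TAF1A-AS1 (15 and 26 counts). UBTF shares 248 bases with an antisense RNA gene that has no symbol (112 and 185 counts). TAF1D also shares 88 bases with MED17 (903 and 1032 counts) and 35 with C11orf54 (287 and 549 counts), both on the opposite strand. The share of 50-base sequences also present in another gene was 10.1% for SMARCA5, 8.30% for TAF1D, 5.38% for TAF1C and 4.82% for BAZ2A, and apart from RRN3 the others lay between 0 for TAF1B and 3.50% for TAF1A. The part of these neighbours in the levels was not tested.

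Genes that work with the factors were expressed throughout, and all 55 in the partner lists were detected, where 63.8% of protein-coding genes were. The lists were chosen with earlier results of these data known, so this detection is a description and not a test. The 13 Pol I subunit genes had a median of 65.2 TPM, from 7.17 for POLR1H, a small subunit linked to RNA cleavage, to 419 for POLR2E, a subunit shared with the other nuclear polymerases. In scaled reads, 1 subunit gene was higher in replicate 2 and 8 in replicate 1, where 22.1% and 20.1% of all genes tested were called. Relative to genes of like GC content the counts were 1 and 6, against 13.5% and 13.3% of all genes. The former was POLR1F, singled out after its values were seen, with a TPM of 18.4 and 37.9 and a log2 ratio of scaled reads of 1.10, or 0.35 relative to genes of like GC content. The 16 partners of initiation had a median of 93.1 TPM, from 12.8 for the acetyltransferase gene KAT2B to 3245 for NPM1, which encodes the abundant nucleolar chaperone nucleophosmin, and 6 had more scaled reads in replicate 2 (22.1% of all genes) and 5 in replicate 1 (20.1%). The latter were MYC, CSNK2A1, TCOF1, ERCC2 and SIRT7, and relative to genes of like GC content CSNK2A1 alone of these passed the test. The counts for the list were then 3 higher in replicate 2 and 4 in replicate 1, against 13.5% and 13.3% of all genes.

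The 17 partners of silencing, histone deacetylases, DNA methyltransferases and the like, had a median of 39.98 TPM, from 4.68 for BEND3 to 547 for PARP1. Of these, HDAC2 and SIRT1 had more scaled reads in replicate 2 (22.1% of all genes) and 10 genes had more in replicate 1 (20.1%). Relative to genes of like GC content the counts were 2 and 5, against 13.5% and 13.3% of all genes. HDAC2 and SIRT1 were then lower in replicate 2, with log2 ratios of -0.16 and -0.21 in place of 0.36 and 0.43. The 8 other subunits of ISWI complexes and relatives of BAZ2A had a median of 82.3 TPM, from 18.6 for BAZ2B to 159 for BPTF, the large subunit of NURF, and 6 were higher in replicate 2 (22.1% of all genes) and 0 in replicate 1 (20.1%) in scaled reads. Relative to genes of like GC content, 6 were higher in replicate 2 (13.5% of all genes) and 1 in replicate 1 (13.3%). BAZ2B, the closest relative of BAZ2A in name and domain layout, had a TPM of 10.8 and 26.4, so that BAZ2A stood 17.7 and 7.57 times above it. CAVIN1, known as a release factor for Pol I transcripts, had a TPM of 14.9 and 12.2, near the level of TTF1. The median log2 ratio between the libraries was -0.17 for Pol I subunits, -0.029 for initiation partners, -0.15 for silencing partners and 0.37 for the ISWI list, beside 0.29 for the initiation factors, 0.34 for the termination and silencing factors and 0.021 for all genes tested. With the GC trend removed, these medians were -0.11, -0.0062, -0.025 and 0.24 for the partner lists, 0.037 for the initiation factors, 0.031 for the termination and silencing factors and 0.021 for all genes tested.

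**Figure D4:**
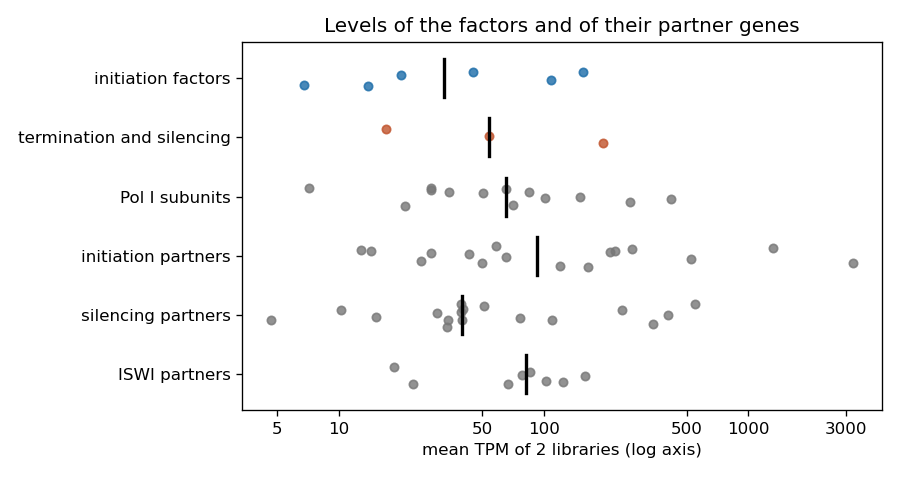
Mean TPM of the 2 libraries (log axis) for each gene of 6 lists, with the median of the list as a black bar; vertical spread within a list has no meaning. The initiation and the termination and silencing factors have medians of 32.7 and 54.0 TPM, beside 65.2 for Pol I subunits, 93.1 for initiation partners, 39.98 for silencing partners and 82.3 for ISWI partners.

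The start-site sequences of these genes were read from RefSeq promoters (GRCh38.p14, 250 bases before and 50 after the start), which held all 9 genes. The ETS-type motif CCGGAAG, noticed after the sequences were read and searched on both strands, lay in the windows of 6 of the 9 genes (RRN3, TAF1A, TAF1B, TAF1C, TAF1D and TTF1), where 12.2% of 27305 genes and 16.5% of 15843 protein-coding genes held it. Stretches of 29 bases around the match are shown because 5 of the 6 initiation factors share it, with the motif, or its reverse complement CTTCCGG, in capitals. They are written 5′ to 3′ on the strand of the gene.
RRN3, chr16:15094292-15094320, reverse strand: ggcacgcgcaaCTTCCGGgacagaggctg
TAF1A, chr1:222589915-222589943, reverse strand: tccagaagtcaCTTCCGGggtcgaggcga
TAF1B, chr2:9843468-9843496, forward strand: tccagcctttcCCGGAAGctgcgctcgct
TAF1C, chr16:84187045-84187073, reverse strand: cgcaggaggcaCTTCCGGtccaaaccgga
TAF1D, chr11:93741543-93741571, reverse strand: tcgccttcttcCCGGAAGctaagttgtat
TTF1, chr9:132406810-132406838, reverse strand: caacagcagcaCTTCCGGgttgggagaaa

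The match is a description of letters and not of a bound site. The GC box GGGCGG lay in the windows of UBTF, TAF1D, BAZ2A and SMARCA5, and 48.3% of genes and 64.3% of protein-coding genes held it. The CCAAT box lay in 4 windows (RRN3, TAF1A, TAF1B and TAF1C), against 39.7% of genes and 42.1% of protein-coding genes. The YY1-type motif AANATGGCG lay in the window of TAF1D, against 3.85% of genes and 5.59% of protein-coding genes. None of the 9 windows held a heat shock element of GAA, TTC and GAA, each set apart by NN (0.608% of genes), the E-box CACGTG (8.77%) or the TATA box TATAAA (14.0%). Among protein-coding genes these shares were 0.537%, 10.9% and 12.4%. The absence says only that these letters are not in these windows.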

How the data were processed

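Both libraries were taken from the labels as replicates of 1 group. Genomic DNA is given as the molecule in the labels, but the protocol there describes poly(A)+ RNA. Per the submitters' processing notes, reads were handled with Trimmomatic 0.36, STAR 2.6.1c and RSEM 1.3.1 on hg19/GRCh37.p13, while the study's methods name featureCounts. The authors deposited an expected count for each gene, in which multi-mapped reads are shared among genes. The deposited TPM and FPKM take account of transcript length and library size. Bounds and posterior SDs of the same estimates were deposited too, and the level of the bounds is not stated in the sources read. A series table of pooled values was not used.

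The members and lists were chosen with earlier results of these data known. All members were named, with the lowest and highest gene of each list and all paralogues and pseudogenes. HDAC2, SIRT1, POLR1F, the initiation partners higher in replicate 1 and the markers UCHL1, STMN2 and SNAP25 were named after their values were seen. Symbols came from GENCODE (96.1% of identifiers matched, 95.5% with GC content). Expected counts were rounded to whole numbers and tested between libraries by an exact two-sided binomial test (scipy 1.17.1), with shares from edgeR 4.0.16 TMM factors and Benjamini-Hochberg adjustment over the 19714 genes whose counts summed to at least 10. The test allows for counting noise alone, so a call means a difference beyond that noise. Its p-values do not measure the spread between replicates. The libraries were not 1 library deposited again, with a chi-square of 37.5 per gene. Log2 ratios had a pseudocount of 0.5 count. GC medians were taken in 50 classes. The test was checked on simulated counts that held counting noise alone. They had no GC trend and no further spread between replicates, so that check does not cover these features of the libraries. Alternatives covered units, limits, scaling by totals or DESeq2 1.42.0 size factors, GC content, an assumed variation and genes left out.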

Additional observations from a re-analysis of the deposited data

How the results depend on the processing

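The detection of all 9 genes held at limits of 0.1 and 5 TPM and of 1 CPM, while 7 passed 10 TPM. The median of the members' mean TPM, 45.3, was 35.8 as FPKM, 62.9 as CPM and 16.4 as CPM per kb of canonical transcript, and 42.7 to 46.2 with either library left out. The ratio of initiation to termination and silencing factors, 1.31 on summed TPM, was 0.732 on summed CPM, 0.653 on mean and 0.630 on median TPM per gene, 1.64 without SMARCA5 and 1.47 with TBP added. Settings chosen after seeing the data gave 1.87 on summed and 0.933 on mean CPM per kb of canonical transcript, 0.731 without TAF1D and 4.98 without BAZ2A. With either library left out it was 1.20 to 1.41. The count of members that differed between libraries, 7, was 2 with the GC trend removed, 2 with an assumed coefficient of variation of 0.1 and 2 with an absolute log2 ratio of at least 0.5 also required. It was 8 when scaled by library totals, where RRN3 passed. Log2 ratios changed sign with the GC trend removed for RRN3 (-0.11), TAF1C (0.23), BAZ2A (0.031) and SMARCA5 (-0.093), and by library totals for TAF1C (0.021).

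No paired analysis was possible because there was 1 group. Leaving out a library leaves no comparison between libraries. At 127 and 211 counts, TAF1A had the least depth.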
